A study of Mus musculus with 4 samples.

Results

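Glucose uptake, glycolysis and lactate production were examined in nasal process (NP) tissues of E11.5 mouse embryos through 10 genes: *Slc2a3*, *Hk1*, *Gpi1*, *Pfkl*, *Pfkm*, *Pfkp*, *Pfkfb3*, *Eno1*, *Ldha* and *Ldhb*. They were selected on a property of their deposited values, which are whole numbers of reads in every library, and they were picked when results of these libraries were known. Of the 10 genes, 9 had a row among the 13577 genes listed, and these 9 all had whole-read values and passed the filter on low values (a mean above 1 CPM, reads on a gene relative to all reads of the library). *Eno1*, which encodes the main enolase of most tissues, had no row under its symbol. A row named *Eno1b* carried the Entrez number 433182, which RefSeq places on chromosome 18, but the chromosome given beside it was 4, where *Eno1* lies. Its values could not be assigned to either gene, and the accounts below cover the other 9.

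Bulk RNA-Seq had been performed on 4 libraries, 2 titled control and 2 titled ca-*Acvr1* mutant. In the study's crosses the mutant embryos carry a floxed transgene for a constitutively active form of the BMP type I receptor ACVR1 (ca-*Acvr1[A11]* fl/+;*P0-Cre*), and the controls carry *P0-Cre* without it (ca-*Acvr1[A11]* +/+;*P0-Cre*). *P0-Cre* acts in neural crest cells, so that the epithelium and blood of the NP tissues lie outside its main domain, and all mice were of mixed background. The genotype entries of the libraries contradict their titles, since the titled controls are entered with the transgene and the titled mutants with *P0-Cre* only. Titles name the groups in what follows, and if the genotype entries hold instead, every direction given turns round. *Acvr1* itself did not settle the labels: it was at 21.5 and 23.1 CPM in the controls against 24.1 and 12.6 CPM in the mutants, and whether reads of the transgene fall in this row was not tested. The read totals behind the CPM, recovered from the values, were 1956831 (replicate 1) and 2252586 (replicate 2) in the controls and 2408827 (replicate 1) and 2137027 (replicate 2) in the mutants. Whether the replicates came from separate embryos or pools is not given in the sources used here, so the p-values measure only the spread between these libraries.

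In glycolysis, glucose enters the cell through transporters of the SLC2A family, is trapped as glucose phosphate by hexokinases, and is committed to breakdown by phosphofructokinase, the main control point of the pathway. Pyruvate at its end can be reduced to lactate by lactate dehydrogenase, a tetramer of A subunits (from *Ldha*) and B subunits (from *Ldhb*), of which the A form favors lactate production and the B form is the main form of oxidative tissues such as the heart. Migrating neural crest cells are known for high glycolytic activity in the presence of oxygen.

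The promoters of *Ldha*, *Pfkfb3* and *Ldhb* are shown because these are the 3 members with the smallest p in the comparison of the groups. The windows are the 250 bases before a transcript start in RefSeq, on build GRCm38.p6, written 5′ to 3′ on the strand of the gene. Capitals mark ACGTG on either strand, the letters common to many hypoxia response elements and to the E-box CACGTG, which holds them on both strands and was counted here as a single stretch. The *Ldha* window lies at chr7:46845554-46845803 on the + strand and the *Ldhb* window at chr6:142507958-142508207 on the − strand, and neither overlaps an exon of its gene in GENCODE. The *Pfkfb3* window, at chr2:11502091-11502340 on the − strand, holds 11 bases of annotated exons.
Ldha: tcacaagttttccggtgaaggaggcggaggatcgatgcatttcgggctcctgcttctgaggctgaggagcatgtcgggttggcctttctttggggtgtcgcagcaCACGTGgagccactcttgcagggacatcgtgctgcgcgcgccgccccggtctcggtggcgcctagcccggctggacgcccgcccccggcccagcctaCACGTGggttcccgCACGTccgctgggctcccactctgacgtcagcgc
Pfkfb3: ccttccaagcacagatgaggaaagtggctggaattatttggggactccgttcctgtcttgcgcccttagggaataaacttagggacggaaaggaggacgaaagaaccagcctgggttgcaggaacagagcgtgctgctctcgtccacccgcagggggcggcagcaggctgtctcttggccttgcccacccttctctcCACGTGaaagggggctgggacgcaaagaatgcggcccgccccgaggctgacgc
Ldhb: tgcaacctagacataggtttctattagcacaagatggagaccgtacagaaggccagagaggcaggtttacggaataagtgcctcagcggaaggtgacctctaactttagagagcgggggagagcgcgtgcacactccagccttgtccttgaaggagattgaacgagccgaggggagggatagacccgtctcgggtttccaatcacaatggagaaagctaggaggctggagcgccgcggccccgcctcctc
The *Ldha* window held 3 stretches and the *Pfkfb3* window 1, and the *Ldhb* window had none. Only ACGTG was counted, so a window without it may still hold other forms of these elements. *Ldha* and *Pfkfb3* each have another RefSeq window, not shown, which held 0 stretches for *Ldha* and 1 for *Pfkfb3*. A RefSeq window was found for 9 of the 10 genes, all except *Slc2a3*, and 3 of the 9 (*Ldha*, *Pfkfb3* and *Pfkm*) had the letters in at least 1 of their windows. By window, 5 of the 17 windows of these genes held them, some of which overlap, where 16.6% of all 32851 windows of this length did. These matches describe the letters only, and no binding was measured.

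Because the members were chosen by wholeness, the values behind that choice are given first as a description. Within a library nearly all CPM are multiples of a single step, the value of 1 read, which was 0.511 and 0.444 CPM in the controls against 0.415 and 0.468 CPM in the mutants. The value of a member farthest from a whole number, that of *Pfkl* in ca-*Acvr1(A11)* replicate 1, was off by 1.18e-05 reads, against a tolerance of 0.02 reads. The lists of glucose metabolism held 7 genes with a value outside the tolerance: *Slc2a1*, *Slc2a4*, *Hk2*, *Aldoa*, *Aldoc*, *Gapdh* and *Pkm*. Their largest distances were 0.405, 0.370, 0.297, 0.352, 0.411, 0.495 and 0.483 reads, in the same order, and the value just outside the tolerance, that of *Slc2a1* in control replicate 1, was off by 0.0492 reads.

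Of the 28 values of these 7 genes, 17 were not whole, 6 of them in control libraries and 11 in mutant libraries. Offsets of up to 9 CPM, and multiples of 10 up to 500 CPM, were then tried in either direction, a search chosen after the values had been seen. Each of the 17 values lay such a whole number of CPM, from 2 to 400, away from a whole-read value, within 0.0002 reads. The 6 control values were all above that whole-read value and the 11 ca-*Acvr1(A11)* values were all below it. For each of the 17 values, 1 of the offsets tried gave such a match and the others gave none. How these values arose was not tested. The search was not run on the 9 members, whose values are whole as they stand.

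**Figure D1:**
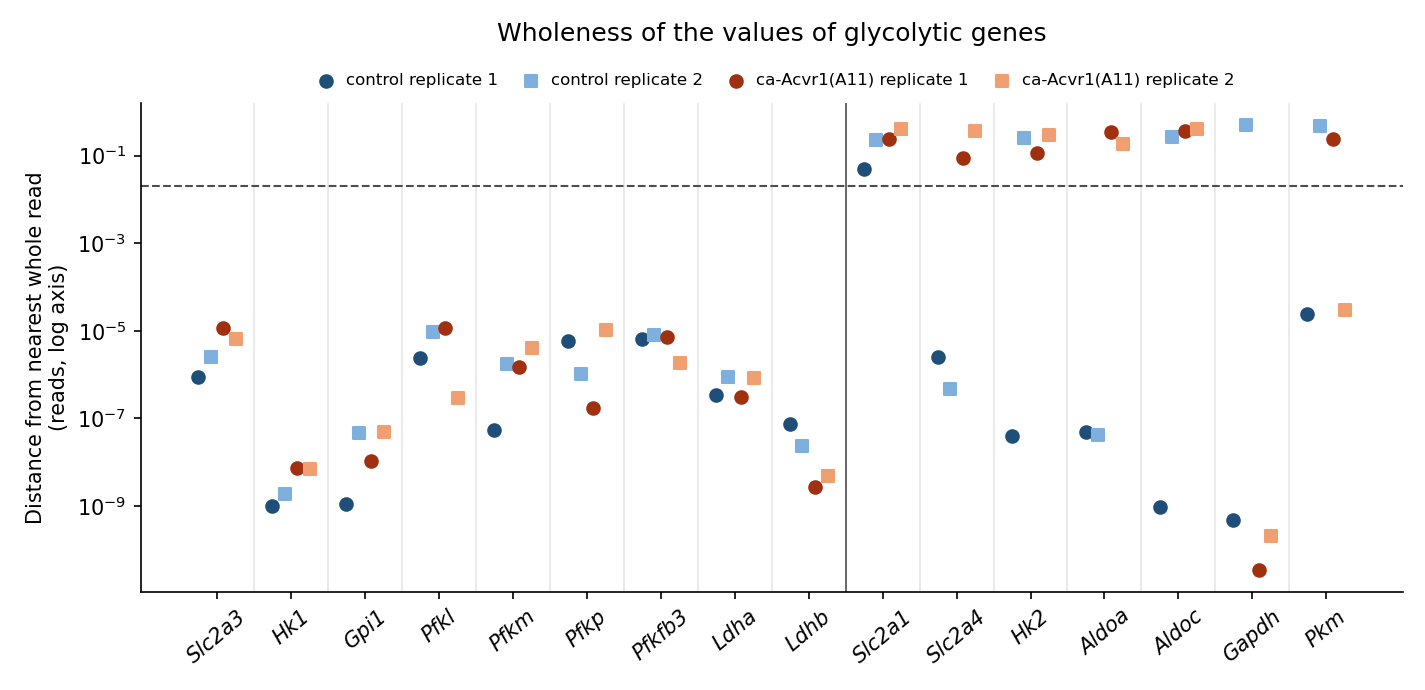
Distance of each value from the nearest whole number of reads (log axis) for the 9 members, left of the vertical line, and the 7 glycolytic genes with a value that is not whole, right of it. Points are libraries and the dashed line is the tolerance of 0.02 reads; every point of the members lies at or below 1.18e-05 reads, and 17 points of the other genes lie above the line.

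The libraries were made with the QuantSeq 3′ kit, which collects reads near the end of a transcript, so that read numbers do not grow with its length. Whether the ends of different genes were captured and counted equally well was not tested, so the order below is one of CPM. In the same pathway, *Gapdh* had a mean of 1.58 CPM as deposited and *Tpi1* one of 300 CPM. By mean level over the 4 libraries, *Ldha* stood far above the other members at 2099 CPM, 18.8 times the next gene, and ranked 23 among the 13577 genes listed. *Ldhb* (112 CPM) and *Gpi1* (108 CPM) followed, with ranges over the libraries that overlapped. *Pfkl* (58.4 CPM) and *Slc2a3* (55.6 CPM) also had overlapping ranges, as did *Hk1* (29.6 CPM) and *Pfkfb3* (25.9 CPM), and *Pfkfb3* and *Pfkm* (20.5 CPM). *Pfkp* was lowest at 9.28 CPM, below every value of *Pfkm*, and ranked 8524. The members thus ran from near the top of the listed genes to below the middle, where only *Pfkp* lay. *Pfkp* rests on 16 to 27 reads in a library, where *Ldha* rests on 3827 to 5711.

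**Figure D2:**
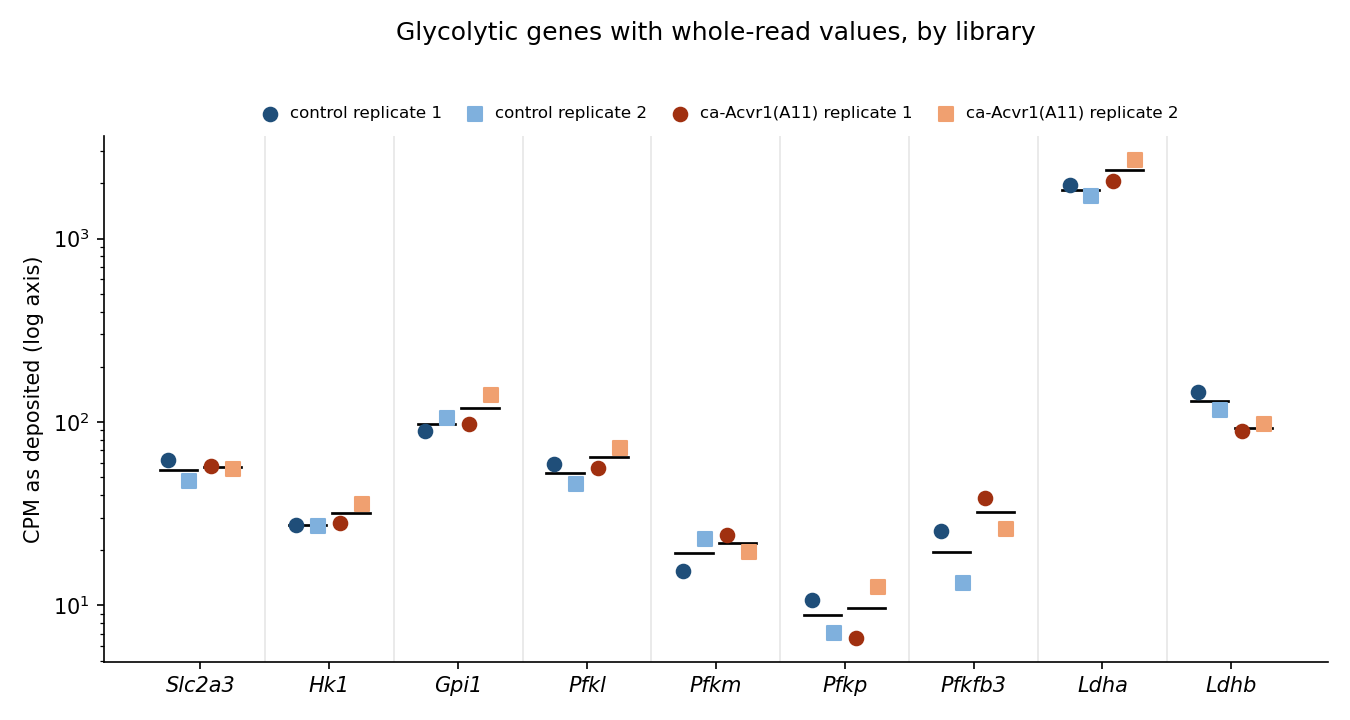
CPM of the 9 members in each library on a log axis, with the mean of each group (n = 2) as a black line. *Ldha* lies between 1715 and 2672 CPM, all other values lie below 146 CPM, and the groups stand apart for *Hk1*, *Pfkfb3*, *Ldha* and *Ldhb*.

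Glucose uptake and phosphorylation were represented by *Slc2a3* and *Hk1*. *Slc2a3* (Entrez 20527; chromosome 6, last exon 122727809 to 122730140 in GENCODE M21), which encodes a high-affinity glucose transporter best known from neurons, was at 61.8 and 47.5 CPM in the controls against 57.3 and 55.7 CPM in the mutants. Both mutant values lay between the control values. The fitted ratio was 1.04, with a 95% interval from 0.801 to 1.35, so that changes within these bounds could not be told from no change at this depth and spread. *Hk1* (Entrez 15275; chromosome 10), the hexokinase of most cell types, was at 27.6 and 27.1 CPM in the controls against 28.2 and 35.6 CPM in the mutants. The groups did not overlap, but ca-*Acvr1(A11)* replicate 1 lay closer to both controls than to its own replicate, and most of the difference came from replicate 2 (log2 fold change 0.21, limma, SE 0.22, adjusted p = 0.848; 0.04 without that replicate).

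*Gpi1* (Entrez 14751; chromosome 7), which encodes the isomerase that turns glucose phosphate into fructose phosphate, was at 88.9 and 105.7 CPM in the controls against 98.0 and 139.9 CPM in the mutants. The groups overlapped, with ca-*Acvr1(A11)* replicate 2 above the other 3 libraries. The ca-*Acvr1(A11)* replicates differed by 4.07 times the standard deviation expected from counting reads, more than the 1.74 times between the controls. The log2 fold change was 0.27 (limma, SE 0.17, adjusted p = 0.682), and it was 0.02 without ca-*Acvr1(A11)* replicate 2 and 0.53 without ca-*Acvr1(A11)* replicate 1.

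Phosphofructokinase has 3 genes, which encode the liver (*Pfkl*), muscle (*Pfkm*) and platelet (*Pfkp*) subunits. *Pfkl* (Entrez 18641; chromosome 10) was at 59.3 and 45.7 CPM in the controls against 56.5 and 72.1 CPM in the mutants. *Pfkm* (Entrez 18642; chromosome 15) was at 15.3 and 23.1 CPM in the controls against 24.1 and 19.7 CPM in the mutants. *Pfkp* (Entrez 56421; chromosome 13) was at 10.7 and 7.10 CPM in the controls against 6.64 and 12.6 CPM in the mutants. In all 3 the groups overlapped. Their log2 fold changes were 0.29, 0.20 and 0.07, and the adjusted p from limma were 0.694, 0.882 and 0.977. That of *Pfkl* ran from 0.10 without control replicate 2 to 0.47 without control replicate 1. The sign turned for *Pfkm* without control replicate 1 (−0.082) and for *Pfkp* without control replicate 2 (−0.20) or ca-*Acvr1(A11)* replicate 2 (−0.35), so no direction can be given for *Pfkm* and *Pfkp*. The last exon of *Pfkp* also overlaps *Pitrm1* on the other strand, and whether the authors counted by strand is not given in the sources used here.

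The make-up of the phosphofructokinase reads varied as much between replicates as between groups. *Pfkl* gave 69.5% (95% interval 61.9% to 76.3%, exact Clopper-Pearson) and 60.2% (52.5% to 67.6%) of the reads of the 3 genes in the control libraries. In the ca-*Acvr1(A11)* libraries it gave 64.8% (57.9% to 71.2%) and 69.1% (62.5% to 75.1%). It was the largest share in each library, followed by *Pfkm* with 18.0% and 30.4% in the controls and 27.6% and 18.8% in the mutants. *Pfkp* held between 7.62% and 12.6% of the reads. The mean *Pfkl* share differed by 2.06 percentage points between the groups, less than the standard deviation of the control replicates (6.52 points). It was 6.68 points without control replicate 1 and turned to −2.55 points without control replicate 2 and to −0.086 points without ca-*Acvr1(A11)* replicate 2, so no direction can be given. These intervals cover counting error only.

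*Pfkfb3* (Entrez 170768; chromosome 2, last exon 11471826 to 11474543) encodes a bifunctional enzyme whose kinase makes a potent activator of phosphofructokinase. It was at 25.6 and 13.3 CPM in the controls against 38.6 and 26.2 CPM in the mutants. Both mutant values lay above both control values, but ca-*Acvr1(A11)* replicate 2 (56 reads) and control replicate 1 (50 reads, of a smaller total) were less than 1 CPM apart. Its log2 fold change of 0.75 was the largest among the members in size (standard error 0.27, 95% interval 0.19 to 1.31). It did not pass the threshold (unadjusted p = 0.0100 and adjusted p = 0.30 from limma). The value depended on the control libraries, which differed by 1.92 times. Without control replicate 1 the log2 fold change was 1.20, and without control replicate 2 it was 0.31. *Pfkfb3* was called in no alternative that used the 4 libraries.

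*Ldha* (Entrez 16828; chromosome 7, last exon 46854977 to 46855626) was at 1956 and 1715 CPM in the controls against 2051 and 2672 CPM in the mutants. The groups did not overlap, yet ca-*Acvr1(A11)* replicate 1 was closer to control replicate 1 than to its own replicate. The gap between the ca-*Acvr1(A11)* replicates was 13.5 times the standard deviation of counting, and that between the controls 5.74 times. From a mean of 1835 ± 170 CPM (SD, n = 2) to 2362 ± 439 CPM (SD, n = 2), the log2 fold change was 0.35 (standard error 0.16, 95% interval 0.04 to 0.67; unadjusted p = 0.0307 and adjusted p = 0.448 from limma). Without control replicate 1 it was 0.45, and without ca-*Acvr1(A11)* replicate 2 it was 0.16. *Ldha* was called in no alternative that used the 4 libraries. The end of *Ldha* has near copies in 6 pseudogenes (at least 95% identity over 100 bases), and *Gpi1* and *Ldhb* each have a near copy in 1 pseudogene. How the authors' counting divided reads among such copies is not given in the sources used here, so these levels are uncertain to that extent.

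*Ldhb* (Entrez 16832; chromosome 6, last exon 142490249 to 142490604) was at 145.6 and 115.9 CPM in the controls against 88.8 and 97.3 CPM in the mutants. Both mutant values lay below both control values. It was the member with the smallest p, at a log2 fold change of −0.48 (SE 0.16, 95% interval −0.80 to −0.15), which did not pass the threshold (unadjusted p = 0.00572 and adjusted p = 0.236 from limma). Without control replicate 2 the log2 fold change was −0.64 and passed it (adjusted p = 0.0448 from limma), and without control replicate 1 it was −0.31. The adjusted p ran from 0.0448 to 1.00 over the alternatives. In bulk tissue, fewer cells of a type that makes *Ldhb* and less of its RNA in each cell cannot be told apart.

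Opposite differences in the levels of *Ldha* and *Ldhb* met in the share of *Ldhb*, a ratio within a library that no scaling between libraries affects. *Ldhb* gave 6.93% of the reads of both genes in control replicate 1 (95% interval 6.17% to 7.75%, exact Clopper-Pearson) and 6.33% in control replicate 2 (5.60% to 7.12%). It gave 4.15% in ca-*Acvr1(A11)* replicate 1 (3.62% to 4.73%) and 3.51% in replicate 2 (3.06% to 4.02%). Both mutant shares lay below both control shares. The mean was 6.63 ± 0.43% in the controls and 3.83 ± 0.45% in the mutants (SD, n = 2 each), a gap of 2.80 percentage points that exceeds the spread of the replicates. With 2 libraries against 2, an exact two-sided permutation test cannot give a p below 0.333, which is the value it gave here, so that test could not pass 0.05 here. Read by read, 13.4 and 14.8 *Ldha* reads were counted for each *Ldhb* read in the controls, and 23.1 and 27.5 in the mutants.

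**Figure D3:**
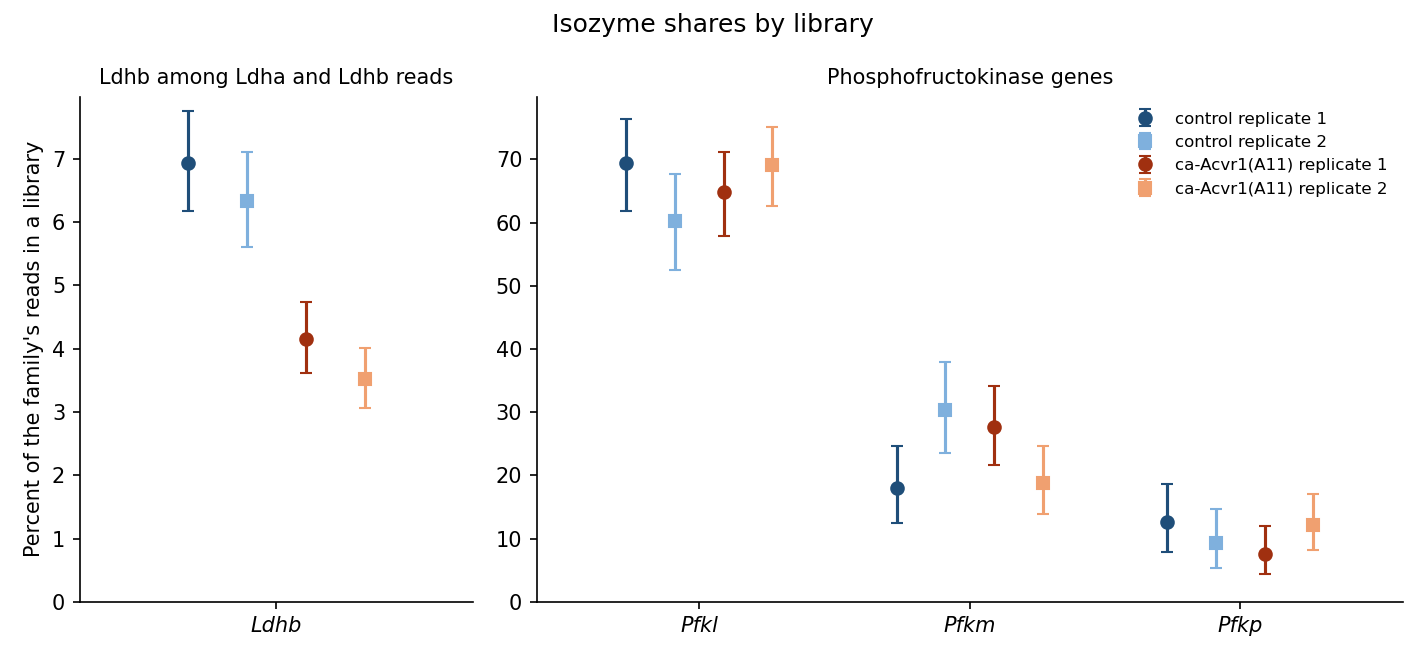
Percent of a gene family's reads given by *Ldhb* (left, of *Ldha* and *Ldhb*) and by *Pfkl*, *Pfkm* and *Pfkp* (right, of the 3 genes) in each library, with exact 95% binomial intervals as bars. The *Ldhb* shares of the control libraries (6.93% and 6.33%) lie above those of the ca-*Acvr1(A11)* libraries (4.15% and 3.51%), and the phosphofructokinase shares overlap between the groups.

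Summed over the 9 members, the levels were 2391 and 2100.3 CPM in the controls against 2449 and 3131 CPM in the mutants. *Ldha* made up 81.8%, 81.7%, 83.8% and 85.3% of these sums. Without *Ldha* the sums were 435 and 385 CPM in the controls against 398 and 459 CPM in the mutants, and the groups overlapped. The sum of all 9 therefore follows *Ldha*. The sum without it joins fitted changes of both signs, none past the threshold, so it does not show that the other 8 members were alike in the groups.

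At an adjusted p under 0.05 from limma, 0 of the 9 members were called, where 0.899% of the 12462 genes tested were (0.305% higher and 0.594% lower). The excess of lower over higher calls was not kept when either control library was left out. At an unadjusted p under 0.05 from limma, 2 members were higher (*Pfkfb3* and *Ldha*; 5.42% of all genes tested) and 1 was lower (*Ldhb*; 4.12%). On the recovered reads, edgeR called 0 members (1.31% of its genes), DESeq2 0 (0.356%) and limma-voom 0 (1.24%), and at an unadjusted p under 0.05 they gave 3, 2 and 3 members (10%, 2.65% and 10.2% of all genes, in the same order). The groups did not overlap, with the mutant higher, for *Hk1*, *Pfkfb3* and *Ldha*, a pattern that 21.9% of all genes tested showed. They did not overlap with the mutant lower for *Ldhb*, as in 16.8% of all genes. The library with the highest value was ca-*Acvr1(A11)* replicate 2 for 5 of the 9 members (*Hk1*, *Gpi1*, *Pfkl*, *Pfkp* and *Ldha*), which held for 29.5% of all genes.

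The median log2 fold change of the 9 members was 0.21, with 8 above 0 and 1 below, beside a median of 0.03 over all genes tested, of which 54.2% were above 0. These figures describe the list and do not test it, because the members were picked with results known. The choice by wholeness had also left out 7 glycolytic genes, all lower as deposited. At their whole-read values the mutant was higher in 4 of these 7 and lower in 1, and the groups of 2 overlapped. Wholeness alone does not define the list. Of the 50 other genes of glucose metabolism tested with whole-read values, 27 had a log2 fold change above 0 and 23 below. Each member kept its sign in all 12 alternatives that used the 4 libraries, some of which cannot change a fold change. With a library left out, *Slc2a3*, *Pfkm* and *Pfkp* changed sign, *Slc2a3* to −0.13 without control replicate 2.

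**Figure D4:**
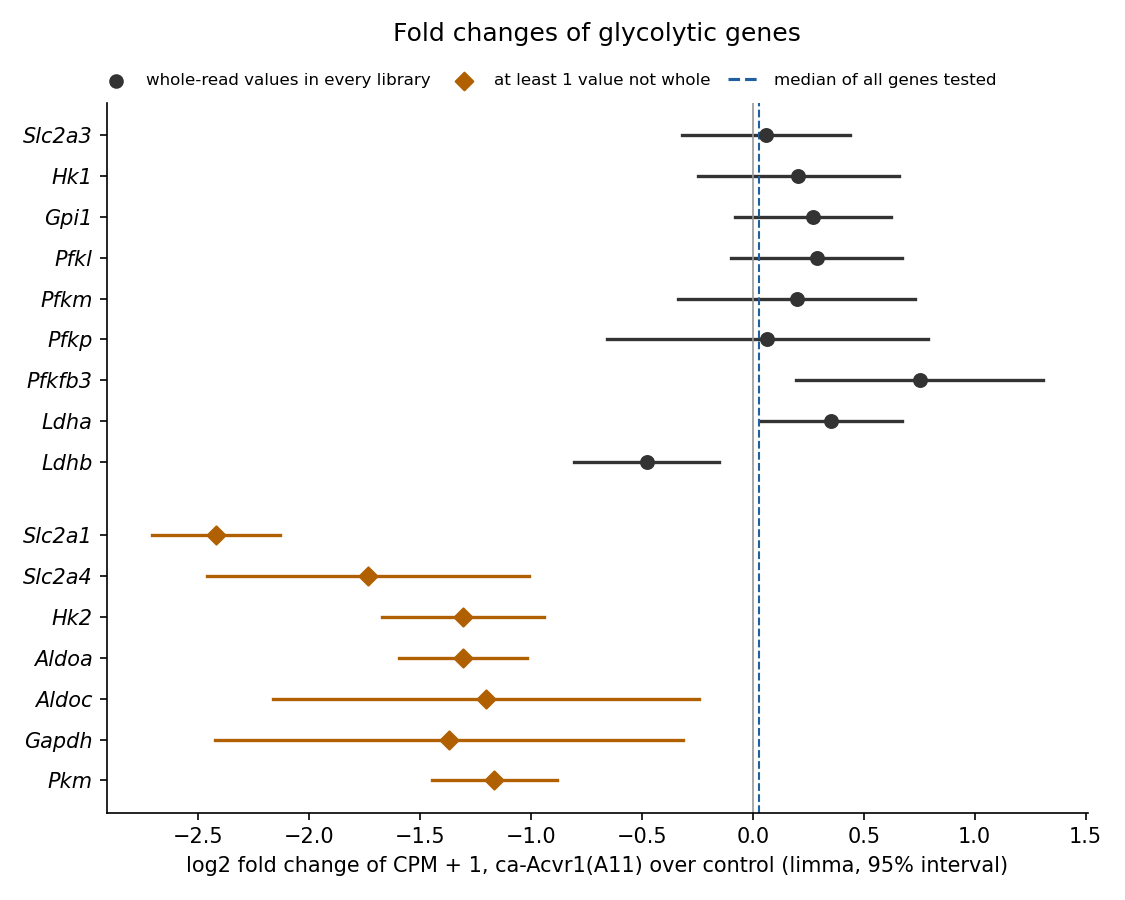
Log2 fold change of CPM + 1, ca-*Acvr1(A11)* over control, with its 95% interval from limma, for the 9 members (black circles) and the 7 glycolytic genes with a value that is not whole (orange diamonds); the dashed line is the median of all genes tested, 0.03. The members lie between −0.48 and 0.75, and the other genes, whose values were taken as deposited, lie between −2.42 and −1.16.

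The other genes of glucose metabolism came from 8 hand-written lists (transporters, hexokinases, upper and lower glycolysis, lactate dehydrogenases, opposing enzymes, pyruvate entry to mitochondria and branch pathways). Besides the members they named 76 genes, of which 57 were tested. At an adjusted p under 0.05 from limma 0 of these were higher and 5 were lower: *Slc2a1*, *Slc2a4*, *Hk2*, *Aldoa* and *Pkm*. By list, with the members counted in, these were 2 of 8 transporters, 1 of 4 hexokinases, 1 of 11 genes of upper and 1 of 9 of lower glycolysis, and 0 of the 3 dehydrogenases, 2 opposing enzymes, 13 genes of pyruvate entry and 16 of the branch pathways tested. All 5 are among the genes with a value that is not whole, and their calls rest on those values. With each such value set to the whole-read value found above, and the other values as deposited, the groups of 0 of the 5 genes stood apart with the mutant lower. They stood apart with the mutant higher for *Slc2a1*, *Hk2* and *Aldoa*, and overlapped for *Slc2a4* and *Pkm*, so no direction can be given for these 5 genes. Of the 2 other genes with such values, which were not called, *Gapdh* stayed lower in the mutants (2.56 and 0.888 CPM in the controls against 0.415 and 0.468 CPM) and *Aldoc* turned higher (3.07 and 0.888 CPM against 5.40 and 4.21 CPM). Both genes rest on few reads, and *Gapdh* is at 1 read in each mutant library. The end of *Gapdh* also has near copies in 125 pseudogenes, so no direction can be given for it. *Slc2a4* also missed the threshold as deposited in DESeq2 (adjusted p = 0.263), and in limma without control replicate 2 (0.0690) or ca-*Acvr1(A11)* replicate 1 (0.0611). Of the 50 other genes tested whose values were all whole reads, 0 were called by limma, 6 were higher and 1 was lower at an unadjusted p under 0.05, and the median log2 fold change was 0.09. On the recovered reads, *Psat1* alone of these 50 passed in limma-voom (adjusted p = 0.0488), and none did in edgeR or DESeq2.

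*Slc2a1*, the most widely expressed glucose transporter, was at 538 and 477 CPM in the controls against 98.5 and 89.7 CPM in the mutants as deposited, and none of the 4 values is whole. The whole-read values were 238 and 177 CPM in the controls against 298 and 289.7 CPM in the mutants, the opposite direction. *Hk2*, the inducible hexokinase, was at 122.6 and 178.6 CPM in the controls against 53.6 and 65.7 CPM in the mutants as deposited, with 3 values that are not whole, and at 122.6 and 78.6 CPM against 154 and 166 CPM with the whole-read values in their place. *Aldoa*, the aldolase of most tissues, was at 459.9 and 387 CPM in the controls, both whole, against 172 and 168 CPM in the mutants as deposited, where the whole-read values were 472 and 568 CPM. Set beside them, *Slc2a3* and *Hk1*, which serve the same steps as *Slc2a1* and *Hk2* and have whole-read values, had fitted ratios of 1.04 and 1.15. Their groups differed by 1.82 and 4.56 CPM in mean level, at means of 55.6 and 29.6 CPM over the libraries. Among whole-read genes of the same pathway, *Tpi1*, the triose phosphate isomerase, was at 296 and 313 CPM in the controls against 282 and 310.2 CPM in the mutants (log2 fold change −0.04, adjusted p = 0.959 from limma). *Tpi1* does not stand for the pathway. With the members counted in, 6 of 9 whole-read genes of upper and 4 of 7 of lower glycolysis had a log2 fold change above 0. The others were below 0, and 54.2% of all genes tested were above 0.

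Downstream and beside the pathway, *Pdha1*, the catalytic subunit of pyruvate dehydrogenase, was at 226 and 190.0 CPM in the controls against 272 and 339 CPM in the mutants. It is the most abundant of the 13 genes tested for pyruvate entry and the one with the smallest p, and does not stand for them: 5 of the 13 had a log2 fold change above 0 and 8 below, with a median of −0.11. *Pdhb*, which encodes another subunit of the same enzyme, was at 105.3 and 103 CPM in the controls against 89.3 and 75.8 CPM in the mutants (log2 fold change −0.33, unadjusted p = 0.0469 and adjusted p = 0.512 from limma). *Psat1*, an enzyme of serine synthesis from a glycolytic intermediate, was at 325 and 263 CPM in the controls against 399 and 467 CPM in the mutants. In *Pdha1* and *Psat1* the groups did not overlap, as with *Ldha*. Their log2 fold changes of 0.55 and 0.56 missed the threshold (adjusted p = 0.0817 and 0.0584 from limma). Both passed it with the replicate block (0.0156 and 0.0104 from limma) and without control replicate 1, settings in which more genes were called across the table. *Psat1* also passed it with no filter on low values (0.0415). Over the alternatives the adjusted p ran up to 0.80 for *Pdha1* and 0.624 for *Psat1*, both without ca-*Acvr1(A11)* replicate 2. *Pdk1*, a kinase of that dehydrogenase named after its values were seen, passed without control replicate 1 only (adjusted p = 0.0386 from limma, log2 fold change 0.62), and had a log2 fold change of −0.11 without control replicate 2. Of the opposing enzymes, *G6pc3*, a glucose phosphatase, was at 13.3 and 11.1 CPM in the controls against 15.4 and 12.6 CPM in the mutants, and the groups overlapped.

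Among the lists of cell type markers, those of mesenchyme, epithelium and macrophages held genes called by limma. Of 15 facial mesenchyme markers, 11 were called lower by limma and 0 higher (12 lower and 0 higher at an unadjusted p under 0.05; 11 were called by edgeR, 7 by DESeq2 and 11 by limma-voom), and their summed level was 2163 and 2546 CPM in the controls against 1208 and 1212 CPM in the mutants. The most abundant of them, *Col1a2*, was at 540.2 and 617 CPM in the controls against 246 and 240.1 CPM in the mutants. *Pdgfra*, among the 11, has values that are not whole. Of 12 epithelial markers, 2 were called higher by limma (2 were called by edgeR, 0 by DESeq2 and 2 by limma-voom, and 7 were higher at an unadjusted p under 0.05 from limma), and the sum was 284 and 262 CPM in the controls against 437 and 402 CPM in the mutants, led by *Cdh1* at 77.2, 59.5, 121 and 114 CPM. Markers of both mesenchyme and epithelium, the tissues of the labelled NP, were present in every library.

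Of 11 neural markers 0 were called by limma, edgeR, DESeq2 or limma-voom and 6 were higher at an unadjusted p under 0.05 from limma, and their sum was 1439 and 1394 CPM in the controls against 1820 and 1898 CPM in the mutants, led by *Sox2*. Macrophage markers were at 47.0 and 46.2 CPM in the controls against 80.1 and 114 CPM in the mutants, with *Cx3cr1* the most abundant. Of the 7 tested, 2 were called higher by limma, 2 were called by edgeR, 0 by DESeq2 and 1 by limma-voom, and 4 were higher at an unadjusted p under 0.05 from limma. The erythroid sum, led by *Hbb-y*, was 7028 and 8483 CPM in the controls against 6710 and 7213 CPM in the mutants, and the endothelial sum, led by *Kdr*, was 196, 207, 202 and 195 CPM. The muscle sum, led by *Ttn*, stayed below 10 CPM in each library, and *Myod1* and *Myog* had no row. Of the 6 erythroid, 8 endothelial and 4 muscle markers tested, 0 were called by limma, edgeR, DESeq2 or limma-voom, and 0 had an unadjusted p under 0.05 from limma. The part of these differences in marker levels in the values of *Ldha*, *Ldhb* and *Pfkfb3* was not tested.

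Among 3961 genes with whole-read values and a mean of at least 50 CPM, those whose profile over the 4 libraries was nearest to that of *Ldha* were *Ino80c*, *Letmd1* and *Sparc*. Their Euclidean distances from it, on centred log2(CPM + 1) values, were 0.04, 0.04 and 0.06. *Ino80c*, for example, was at 60.8 and 51.9 CPM in the controls against 63.1 and 84.2 CPM in the mutants, with the same order of libraries as *Ldha*. Over 4 libraries many genes can share an order, and the likeness is a description only.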

How the data were processed

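RNA of E11.5 NP tissues was made into QuantSeq 3′ libraries, and the authors deposited CPM values (reads per gene scaled to the library total). The submitters' processing notes name STAR, featureCounts 1.6.4, DESeq2 and mm10, with no roles given. Reads were recovered from the CPM steps: 99.921% of 54308 values were whole within 0.02 reads, and 0 columns of values were unused. log2(CPM + 1) was fitted with limma 3.58.1 (mean-variance trend, group only, mean above 1 CPM, Benjamini-Hochberg over 12462 genes, threshold 0.05). On this scale the change of a low gene is understated. edgeR 4.0.16 (quasi-likelihood, 133 genes called), DESeq2 1.42.0 and limma-voom were run on the recovered reads, under R 4.3.3. These tests and limma were also run on simulated data in which all genes had the same dispersion. Only the outcome of limma was held to a set limit there. Shares used exact Clopper-Pearson intervals and exact permutation tests (scipy 1.17.1). Figures were drawn with matplotlib 3.10.9. Near copies of the last 300 bases were searched with blastn 2.17.0. Positions are from GENCODE M21 on GRCm38, promoters from RefSeq on GRCm38.p6.

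Members and gene lists were chosen with earlier results of these data known. The genes named are the members; of each list the called genes, or otherwise the most abundant whole-read gene and the gene with the smallest p; the glycolytic genes with values that are not whole; the 3 nearest profiles to the most abundant member; and the most abundant marker of each cell type. *Slc2a3* against *Hk1* as partners of *Slc2a1* and *Hk2*, and *Tpi1*, were set side by side, and *Pdhb* was added, after their values were seen. Alternatives were other pseudocounts, filters, scalings and tests, a replicate block, omission of the 22 genes with values that are not whole, and omission of each library.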

Additional observations from a re-analysis of the deposited data

How the results depend on the processing

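Over the 12 alternatives that used the 4 libraries, the 9 members gave 108 log2 fold changes, of which 108 kept their sign and 0 were called. The other filters, the replicate block and the omission of genes leave the log2 fold change of a member as in the main fit. Their agreement in sign was thus fixed in advance, and only the other pseudocounts, scalings and tests could have changed it. When a library was left out (the lone library of a group is then assumed to vary like the other group), *Slc2a3* ran from −0.13 to 0.25, *Hk1* from 0.04 to 0.37, *Gpi1* from 0.02 to 0.53, *Pfkl* from 0.10 to 0.47, *Pfkm* from −0.082 to 0.48, *Pfkp* from −0.35 to 0.48, *Pfkfb3* from 0.31 to 1.20, *Ldha* from 0.16 to 0.55 and *Ldhb* from −0.64 to −0.31. Values below 0 were −0.13 for *Slc2a3* and −0.20 for *Pfkp* without control replicate 2, −0.082 for *Pfkm* without control replicate 1 and −0.35 for *Pfkp* without ca-*Acvr1(A11)* replicate 2. *Pfkfb3* (1.20) and *Ldha* (0.45) passed the threshold without control replicate 1, where more genes were also called across the table. *Ldhb* (−0.64) passed it without control replicate 2, and the cause was not tested. The difference in the *Ldhb* share lay between −3.12 and −2.48 percentage points and that in the *Pfkl* share between −2.55 and 6.68. Shares from the deposited CPM were the same as from reads.

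The 112 genes called across the table became 39 with DESeq2 on the recovered reads, and from 93 to 465 with a library left out, 465 without control replicate 1. The cause was not tested. The other genes of glucose metabolism called, 5 in number, became 0 without the genes that have values that are not whole, since all 5 are among those, and ran from 4 to 8 with a library left out. Samples with the same replicate number share only that number. Over the genes tested, the deviations of the replicate 1 libraries from their group means correlated at 0.067. With 2 libraries in a group, the replicate 2 libraries must give the same value. The replicate block moved the calls to 229, 7 of them among the other genes of glucose metabolism (the same 5, *Pdha1* and *Psat1*), and called 0 members. The enolase share was not run, since *Eno1* had no row of its own.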
